A study of Drosophila melanogaster with 12 samples.

Results

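The genes described here are 89 long noncoding RNA (lncRNA) genes that carried Egg signal in cultured ovarian somatic cells (OSCs) of Drosophila melanogaster. They were chosen from the cells transfected with the control siRNA (siEGFP) in the deposited Egg ChIP-seq table, as the genes with an lncRNA symbol, roX1 and roX2 apart, that had at least 15 RPKM in the siEGFP ChIP and at least 1 on the log2 scale for siEGFP ChIP over siEGFP input. RPKM scales reads to the length of a row and to the depth of a column, and 0.6 RPKM was added to both values before the ratio was taken. The 89 genes were 5.53% of the 1608 lncRNA genes in the table, which held 16754 genes in all. Because the siEGFP columns chose them, the siEGFP values below are a description and were not tested, and the siEgg columns, which took no part in the choice, carry the comparison.

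The cells had 1 of 2 knockdowns, each of 4 days: siEgg, directed at egg itself, or siEGFP, directed at the jellyfish-derived reporter EGFP and used as the control. All cells were OSCs, a line grown from the somatic cells of the fly ovary, with formaldehyde crosslinking and an antibody against Egg for the ChIP and with unselected genomic DNA as input. The labels name 12 samples in 8 groups, 2 for each siEgg and siEGFP group, but the table has 1 column per group with no replicate number, so a column may hold 1 sample or a pool of both. The siPiwi and siWde samples were not analysed here. How much Egg protein was left after siEgg cannot be read from DNA counts, nor can the cell type be checked against its markers from them.

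Egg, or Eggless, is the fly SETDB1, a methyltransferase that places the repressive mark on a lysine of the histone H3 tail from which HP1-bound heterochromatin is built. In follicle and other somatic cells of the ovary it acts with its partner Windei (Wde) and is brought to transposon copies when Piwi, loaded with a piRNA, meets a nascent transcript, and it is also known to act at genes outside heterochromatin. Many fly lncRNA genes are short, lie beside or within protein-coding genes and carry only a CR number, so most of the members have no known function.

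The RPKM values could be turned back into whole reads, which gave 1698148 reads for the siEgg ChIP, 2293964 for the siEgg input, 1796866 for the siEGFP ChIP and 2183061 for the siEGFP input. At this depth a short gene held few reads: the median member had 7 siEgg ChIP reads, 7 siEgg input reads, 27 siEGFP ChIP reads and 5 siEGFP input reads. The log2 ratios that the results turn on are therefore given with a 95% counting interval, exact (Clopper-Pearson) for a ratio of 2 columns, which covers counting error only and says nothing of the spread between cultures. A gene was called enriched when the ratio was at least 1 on the log2 scale and the interval lay above 0. For the 18 members with several transcript rows, RPKM and reads can weight the rows differently, and for those the ratios printed with an interval were computed from the reads.

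In the siEGFP columns, which chose them, the members ran from 15.7 to 179 RPKM in the ChIP with a median of 29.7, against a median of 5.27 RPKM in the input. The median log2 ratio was 2.31, with quartiles of 1.69 and 3.39. The interval lay above 0 in 78 of the 89, and 5.66% of the 12595 genes with at least 10 reads in at least 2 columns were called enriched in that contrast. The members just inside the ChIP threshold were lncRNA:CR43958 and lncRNA:CR44845, both at 15.7 RPKM, and lncRNA:CR44441 at 16.0 RPKM, while lncRNA:CR44980 at 14.6, lncRNA:CR44379 at 14.2 and lncRNA:CR43631 at 14.2 RPKM stayed outside. On the log2 scale lncRNA:CR44371 at 1.01, lncRNA:CR45392 at 1.06 and lncRNA:CR45541 at 1.07 were just inside, and lncRNA:CR43148 at 0.96, lncRNA:CR45325 at 0.93 and lncRNA:CR45531 at 0.84 just outside. The siEGFP input held fewer than 10 reads in 66 members, and 0 reads in 4 of them.

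After knockdown of egg the members kept some ChIP signal over input. Summed over the 89 genes there were 1454 siEgg ChIP reads against 1299 siEgg input reads, which is 1.51-fold after scaling to depth, or 0.60 on the log2 scale (interval 0.49 to 0.71). Over the 1519 other lncRNA genes the same siEgg ratio was -0.03 (-0.07 to 0.00). The median member had a siEgg log2 ratio of 0.54, with quartiles of -0.09 and 1.25, against -0.07 for the other lncRNA genes and -0.03 for all genes with siEgg reads. The ratio was above 0 in 62 of the 88 members with siEgg reads (70.5%), compared with 46.8% of the other lncRNA genes. Among genes of other kinds that met the same siEGFP thresholds it was above 0 in 427 of 552 (77.4%).

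By the call rule, 12 of the 89 members (13.5%) were enriched in siEgg, where 1.35% of all 16505 genes with siEgg reads and 1.32% of the 12595 genes past the read filter were. Of the other lncRNA genes, 21 of 1519 (1.38%) were. The 45 members that passed the read filter included 10 of the 12, but since the siEGFP ChIP helped genes through that filter, the smaller set adds nothing to the count. With at least 10 reads in both siEgg columns, 2 of 19 members, 2 of 331 other lncRNA genes and 0.72% of all 10550 such genes were enriched. Genes of other kinds that met the same siEGFP thresholds had a like level in siEgg: the 556 of them had a median of 0.41 and a summed ratio of 0.63 (0.60 to 0.66), and 61 (11.0%) were enriched. Among those, 33 antisense RNA genes had a median of 1.02 and 8 were enriched, and 488 protein-coding genes had a median of 0.41 with 52 enriched.

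**Figure D1:**
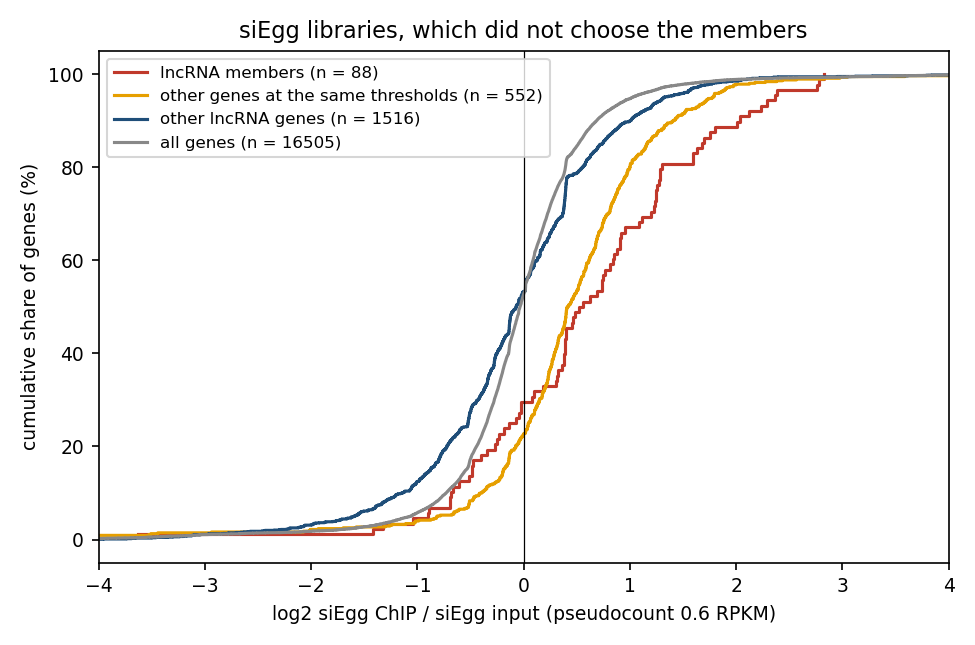
The plot shows the cumulative share of genes (%) against the log2 ratio of siEgg ChIP over siEgg input for 88 lncRNA members with siEgg reads, 552 other genes that met the same siEGFP thresholds, 1516 other lncRNA genes and all 16505 genes. The curve of the members lies to the right of those of the other lncRNA genes and of all genes, with medians of 0.54, -0.07 and -0.03, and near that of the other genes chosen in the same way (0.41).

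The member with the most reads among those enriched in siEgg was lncRNA:CR43838, at X:20759736-20760953 in dm6, 118 bases from shakB, which encodes a gap junction innexin. It had 24.9 RPKM in the siEgg ChIP and 5.26 in the siEgg input (42 and 12 reads), against 101.9 in the siEGFP ChIP and 6.91 in the siEGFP input (182 and 15 reads). The ChIP exceeded the input in both knockdowns, by 2.12 (1.29 to 3.30) in siEgg and 3.77 (3.12 to 4.75) in siEGFP. The adjoining shakB had 190 siEgg ChIP and 297 siEgg input reads, against 185 siEGFP ChIP and 261 siEGFP input reads, with no siEgg or siEGFP ChIP above its input beyond counting error.

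Close beside a protein-coding gene lay also lncRNA:CR44209 (2R:7533190-7533497), 9 bases from Cyt-b5, which encodes a cytochrome b5. It had 12 ChIP and 2 input reads in siEgg, a log2 ratio of 2.83 (0.85 to 6.22), against 43 and 3 reads in siEGFP. Cyt-b5 itself had 11 ChIP and 20 input reads in siEgg, against 21 and 7 in siEGFP. The siEgg ratio of Cyt-b5, -0.45 (-1.64 to 0.70), had an interval across 0, while its siEGFP ratio was 1.70 (0.58 to 3.34).

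At lncRNA:CR45618 (X:11716063-11716720), 36 bases from prtp, 18 ChIP and 7 input reads in siEgg gave 1.67 (0.47 to 3.30), against 96 and 7 reads in siEGFP. lncRNA:CR45233 (3L:14410117-14410698) overlaps CG3919 and ends 178 bases from stwl, a gene required to keep germline stem cells, and had 15 ChIP and 6 input reads in siEgg, a ratio of 1.63 (0.31 to 3.41), against 81 and 6 in siEGFP. In each of these members the siEgg and siEGFP inputs had equal reads, and the difference between the knockdowns lay in the ChIP. lncRNA:CR45279 (2R:12593195-12593827), which overlaps Amph and lies 278 bases from the corepressor gene Sin3A, had 17 ChIP and 4 input reads in siEgg, a ratio of 2.29 (0.91 to 4.55), against 60 and 6 in siEGFP. lncRNA:CR45328 (2R:22596486-22597125), 120 bases from CG4269, had 19 and 7 reads in siEgg, or 1.75 (0.56 to 3.37), against 52 and 6 in siEGFP.

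Among the 12, siEgg and siEGFP lay closest at lncRNA:CR44784 (2R:23383483-23384177), 23 bases from CG30414. It had 14 ChIP and 4 input reads in siEgg, a ratio of 2.0 (0.57 to 4.3), against 24 and 6 reads and a ratio of 2.12 (0.95 to 3.86) in siEGFP. The change between the knockdowns was -0.12, with an interval from -2.09 to 1.85 that leaves both a large fall and a large rise possible at these counts. lncRNA:CR45463 (2L:6480661-6480930) overlaps Daxx, which encodes a chaperone of the histone variant H3.3, and lies 86 bases from Sec61alpha. It had 8 and 2 reads in siEgg, or 2.24 (0.11 to 5.71), against 41 and 5 in siEGFP, and its siEgg call was lost when the inputs of both knockdowns were pooled, at 1.5.

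The remaining members enriched in siEgg had small counts. lncRNA:CR44991 (2L:8403447-8403924), overlapping emb, the exportin gene, had 12 ChIP and 5 input reads in siEgg, or 1.59 (0.09 to 3.55), against 34 and 5 in siEGFP. lncRNA:CR44888 (X:15497523-15497862), overlapping the Golgi protein gene Gmap, had 7 and 1 reads in siEgg, or 2.76 (0.28 to 8.74), against 55 and 1 in siEGFP. Its inputs of 1 read make both ratios very wide. lncRNA:CR45324 (2R:9988125-9989285), overlapping TER94, the fly VCP ATPase, had 19 and 11 reads in siEgg, or 1.11 (0.08 to 2.44), against 66 and 10 in siEGFP. This ratio was the lowest of the 12, and the call was lost with a pseudocount of 3 RPKM, at 0.83.

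lncRNA:CR44712 (X:21630908-21631433) is the member beside flamenco, the piRNA cluster that supplies most of the piRNAs of ovarian somatic cells: it lies 458 bases from the annotated span of lncRNA:flam (X:21631891-21790731) and 760 bases from DIP1. It had 17.1 RPKM in the siEgg ChIP and 5.28 in the siEgg input (12 and 5 reads), against 68.7 in the siEGFP ChIP and 2.22 in the siEGFP input (51 and 2 reads). The siEgg ratio was 1.59 (0.09 to 3.55), and the change from siEGFP was -3.03 (-5.36 to -0.70). DIP1 had 26 ChIP and 64 input reads in siEgg, against 37 and 43 in siEGFP, which gave log2 ratios of -0.84 (-1.58 to -0.19) in siEgg and 0.07 (-0.61 to 0.73) in siEGFP.

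**Figure D2:**
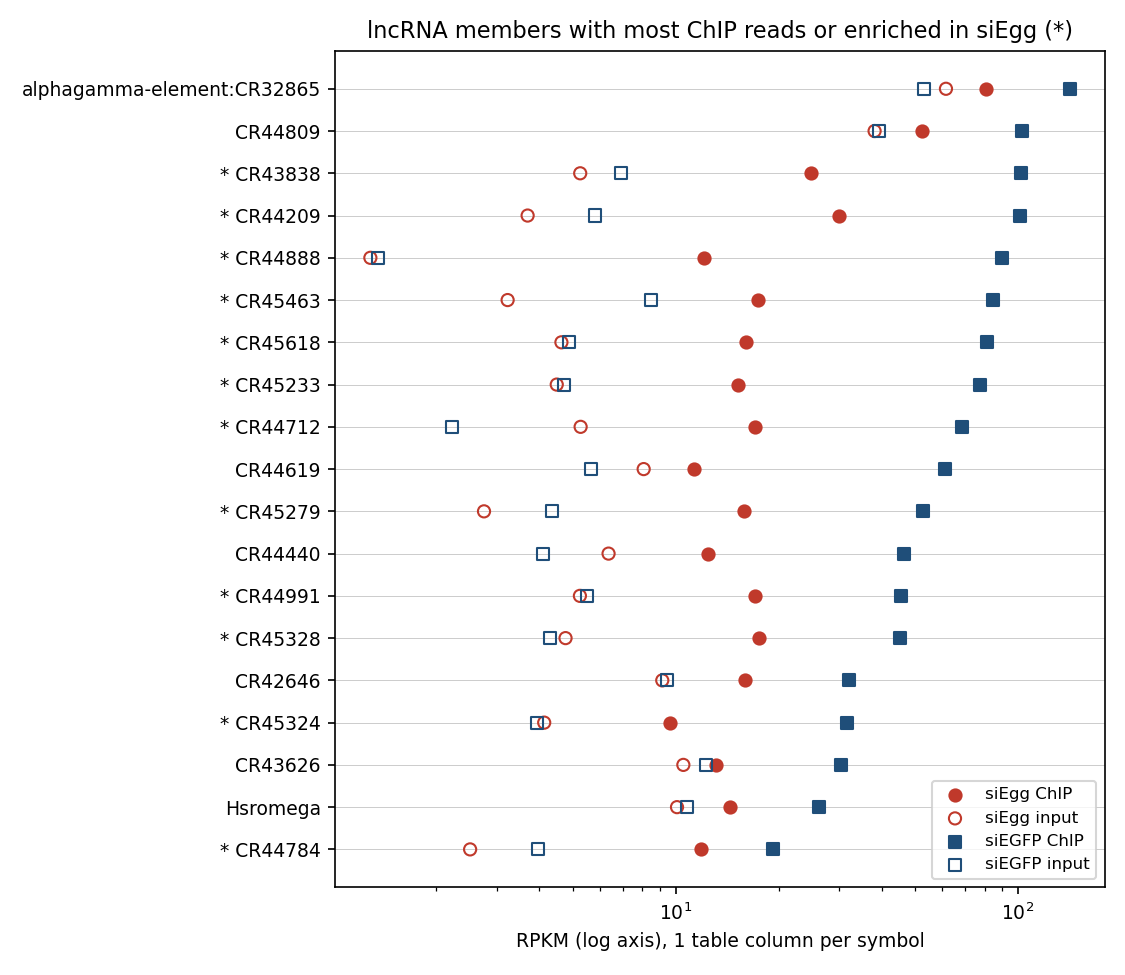
RPKM on a log axis in the siEgg ChIP, siEgg input, siEGFP ChIP and siEGFP input of the 10 members with most siEGFP ChIP reads and the 12 enriched in siEgg (starred, 3 of them in both sets), 1 table column per symbol. The siEgg ChIP lies between the siEgg input and the siEGFP ChIP in each of these members, for example at 24.9 RPKM between 5.26 and 101.9 RPKM at lncRNA:CR43838.

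Hsromega, which makes the heat-inducible nuclear transcripts around which omega speckles form, held more reads than any other member (3R:21296127-21317836). It had 323 ChIP and 266 input reads in siEgg, against 704 and 261 reads in siEGFP. The ratio from reads was 0.71 (0.48 to 0.95) in siEgg and 1.71 (1.51 to 1.92) in siEGFP, and the change in reads was -1.0 (-1.31 to -0.69). The call was made on summed RPKM, where the change was -0.74 and did not pass. It passed with the row of highest RPKM alone, at -1.74, and was -0.06 with quantile scaling, so the size of the change at Hsromega depended on how its 6 rows were combined and on the scaling. Its nearest protein-coding neighbour aus, 464 bases away, had 63 ChIP and 111 input reads in siEgg and 71 and 102 in siEGFP.

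The alphagamma-element member lncRNA:alphagamma-element:CR32865 (3R:12475336-12478267) belongs to a repeated, heat-inducible sequence at the Hsp70 locus, 7560 bases from Hsp70Ba, and reads from near-identical copies may have been shared among them. It had 80.7 RPKM in the siEgg ChIP and 61.7 in the siEgg input (186 and 192 reads), against 141.9 in the siEGFP ChIP and 53.3 in the siEGFP input (346 and 158 reads). These were the highest inputs of any member, where the median input was 5.38 RPKM in siEgg and 5.27 in siEGFP. The ratio was 0.38 (0.09 to 0.69) in siEgg, and relative to siEGFP it fell by 1.02 (interval -1.41 to -0.62). This call stood at the threshold and was lost with a pseudocount of 3 RPKM (-0.99), with quantile scaling (-0.46), and with the inputs pooled or left out (-0.81). Without Hsromega and this element the summed siEgg ratio over the remaining 87 members was 0.60 (0.47 to 0.74), as with them.

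Other members with many reads showed the same order of columns. lncRNA:CR43626 (3L:3249340-3254504), which overlaps mir-282, had 93 ChIP and 100 input reads in siEgg, a ratio of 0.33 (-0.09 to 0.75), against 216 and 111 in siEGFP. lncRNA:CR42646 (2R:5363253-5367357), 149 bases from CG10417, had 71 and 55 reads in siEgg, a ratio of 0.80 (0.27 to 1.34), against 151 and 54 in siEGFP. lncRNA:CR44809 (2L:22169668-22170204), 525 bases from Clamp, whose product binds GA-rich DNA in dosage compensation, had 48 and 47 reads in siEgg, a ratio of 0.46 (-0.15 to 1.08), against 99 and 46 in siEGFP. In each of these the inputs differed by little between the knockdowns while the siEgg ChIP was the lower of the ChIPs.

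The largest falls among members with at least 10 siEGFP input reads were at lncRNA:CR44619 and lncRNA:CR44440. lncRNA:CR44619 (X:12751867-12754571) had 25 ChIP and 24 input reads in siEgg, a ratio of 0.46 (-0.38 to 1.36), against 143 and 16 in siEGFP, and fell by 2.85 (interval -3.93 to -1.76). lncRNA:CR44440 (4:44774-46074) had 26 and 18 reads in siEgg, or 0.90 (0.04 to 1.92), against 103 and 11 in siEGFP, and fell by 2.43 (interval -3.65 to -1.20). The next were lncRNA:CR43496, which overlaps the heterochromatin gene sov and had 8 ChIP and 19 input reads in siEgg against 37 and 16 in siEGFP, lncRNA:CR45661 with 2 and 4 against 30 and 11, and lncRNA:CR44441 with 7 and 16 against 23 and 11. Of these, lncRNA:CR43496 and lncRNA:CR44441 passed the call for a fall and lncRNA:CR45661 did not (-2.18, interval -4.61 to 0.26). The call at lncRNA:CR44441 was lost with a pseudocount of 3 RPKM (-1.55), and lncRNA:CR45661 passed with the inputs pooled or left out (-3.60).

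At the other end lncRNA:CR45565 (3R:31689128-31689878) changed by -0.30 (-1.71 to 1.10), with 14 ChIP and 10 input reads in siEgg against 34 and 18 in siEGFP. lncRNA:CR45559 had 13 and 12 reads in siEgg against 24 and 12 in siEGFP, and lncRNA:CR45187, 148 bases from lost, had 19 and 13 against 46 and 15. The siEgg ChIP was still the lower of the ChIPs in these members, and none of the 3 changes had an interval clear of 0.

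The highest RPKM in the siEGFP ChIP was that of lncRNA:CR45201 (4:959224-959434), 832 bases from 4E-T. It had 27.9 RPKM in the siEgg ChIP and 16.5 in the siEgg input (10 and 8 reads), against 179 in the siEGFP ChIP and 6.51 in the siEGFP input (68 and 3 reads). The siEgg ratio was 0.74 (-0.74 to 2.30), and relative to siEGFP it fell by 3.93 (interval -5.95 to -1.90). lncRNA:CR45441 (3L:6059041-6059448), 210 bases from CG6592, had 11 ChIP and 6 input reads in siEgg, or 1.23 (-0.25 to 3.03), against 80 and 5 in siEGFP. Its siEgg ratio passed the size of the call but its interval did not, except with quantile scaling (1.49) or both inputs pooled (1.32).

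lncRNA:CR43130, which overlaps aqz, had 5 ChIP and 1 input reads in siEgg against 58 and 2 in siEGFP. lncRNA:CR43289 had 6 and 1 in siEgg against 27 and 1 in siEGFP, and lncRNA:CR44733, 206 bases from elB, had 7 and 2 in siEgg against 52 and 5 in siEGFP. All 3 had siEgg ratios above 1 with intervals that reached below 0, so ChIP over input in siEgg was not detectable for them at this depth under the main setting. All 3 passed the call with quantile scaling, at 2.83, 3.14 and 2.38 in that order.

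Between the knockdowns, the siEgg ChIP was the lower of the ChIPs in 88 of the 89 members, with medians of 8.50 RPKM in siEgg and 29.7 RPKM in siEGFP, while the inputs had medians of 5.38 RPKM in siEgg and 5.27 RPKM in siEGFP. Summed ChIP reads were 1454 in siEgg and 4451 in siEGFP, a log2 ratio of -1.53 (-1.62 to -1.45), and summed input reads were 1299 in siEgg and 1161 in siEGFP, a ratio of 0.09 (-0.02 to 0.21). The ChIP alone was lower in siEgg by at least 1 on the log2 scale, with its interval below 0, in 68 members (76.4%), where 4.94% of all genes tested were. Among the 556 other genes at the same thresholds it was so in 378 (68.0%). Since a high siEGFP ChIP is what chose the members, a lower second ChIP is partly fixed by the choice, and nothing is read from these counts about Egg at the members alone.

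The change in enrichment, siEgg minus siEGFP, had a median of -1.82 over the 89 members, was below 0 in all 89 and passed the call for a fall in 36, where 3.44% of all genes tested fell (3.12% without the read filter). That direction did not hold under every setting, which was followed only for a list of named members and not for all 89. With quantile scaling the changes of lncRNA:CR44784 (0.45), lncRNA:CR45565 (0.49) and lncRNA:CR44127 (0.39) were above 0, and with both inputs pooled that of lncRNA:CR45736 was (0.42). None of these had passed the call. The median change of all genes tested was 0.22. For the other genes at the same thresholds the median change was -1.28 and 239 of 556 fell. The only member with a higher ChIP in siEgg was lncRNA:CR45736 (3L:23731614-23732177), with 23 ChIP and 32 input reads in siEgg against 18 and 10 in siEGFP, so that its input differed more than its ChIP. It was also the 1 member whose input was called higher in siEgg, as 0.349% of all genes tested were, and no member had an input called lower, where 1.1% of all genes tested did.

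**Figure D3:**
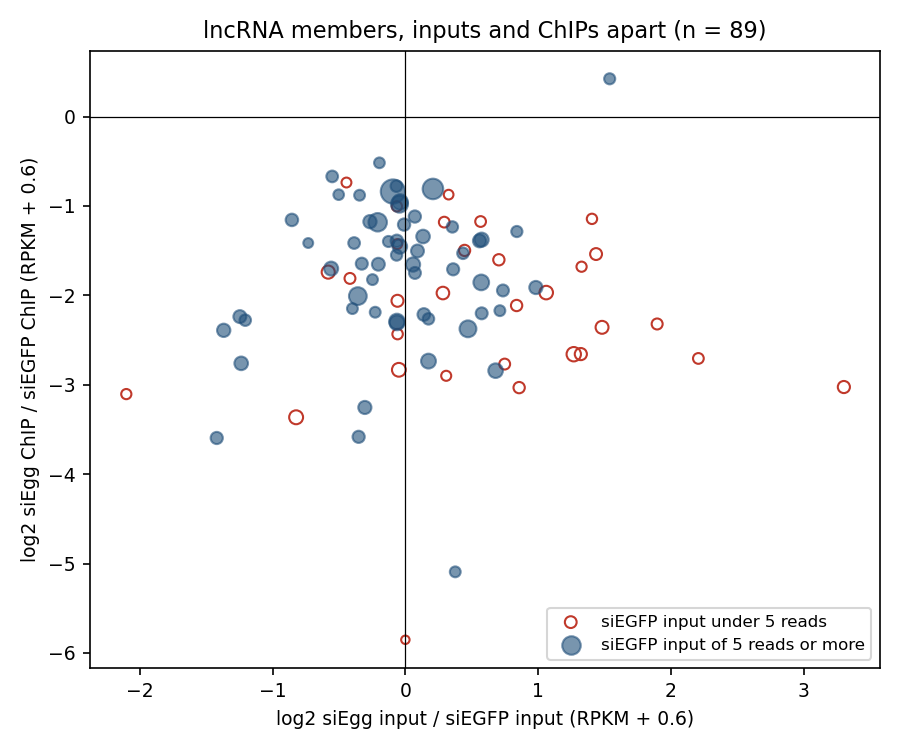
Each point is 1 of the 89 members, with the log2 ratio of siEgg input over siEGFP input on the horizontal axis and that of siEgg ChIP over siEGFP ChIP on the vertical axis (0.6 RPKM added throughout), point area growing with siEGFP ChIP reads and open points marking siEGFP inputs under 5 reads. The ChIP ratio is below 0 in 88 members, whereas the inputs scatter about 0 with a median of 0.00, the open points mostly to the right.

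The choice also favoured genes with few siEGFP input reads, which can be seen from the siEgg input. In the 31 members with fewer than 5 siEGFP input reads the summed input ratio of siEgg over siEGFP was 0.76 (0.33 to 1.21), in the 35 with 5 to 9 reads it was 0.08 (-0.19 to 0.34), and in the 23 with at least 10 reads it was 0.02 (-0.11 to 0.16). Set against the siEgg input, which did not enter the choice, the siEGFP ChIP reads summed to 2.13 (2.04 to 2.22), in place of 2.22 (2.13 to 2.31) against their own input. In the 31 members of lowest input the same exchange gave 2.92 in place of 3.69. The siEGFP ChIP in these ratios is still the one that chose the members, so nothing is read from their height.

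The siEgg signal did not rest on the members of lowest input. Summed siEgg ratios were 0.74 (0.39 to 1.09) in the 31 members with fewer than 5 siEGFP input reads, 0.69 (0.44 to 0.94) in the 35 with 5 to 9 and 0.55 (0.42 to 0.68) in the 23 with at least 10. Ordered by the siEGFP ChIP, they were 0.42 (0.26 to 0.58) in the 45 members under 30 RPKM, 0.73 (0.51 to 0.95) in the 27 from 30 to 60 RPKM and 0.79 (0.58 to 1.00) in the 17 of at least 60 RPKM. The intervals of the lowest and the highest of these ChIP classes do not overlap, by a narrow margin.

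No siEGFP input read was found at 4 members. Of these, lncRNA:CR32368 (3L:7915437-7915846) had 3 ChIP and 5 input reads in siEgg, against 29 and 0 in siEGFP, at least 11.7-fold higher in the siEGFP ChIP than a floor of 3 input reads. lncRNA:CR44985 had 3 and 1 in siEgg against 17 and 0 in siEGFP (at least 6.88-fold), and lncRNA:CR44463 had 2 and 1 against 15 and 0 (at least 6.07-fold). lncRNA:CR45475 had no read in either siEgg column and 3 ChIP reads in siEGFP, no more than the floor, so that no fold can be given.

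By position, 4 of the 89 members (4.49%) lie on chromosome 4, the small chromosome that is largely packed as heterochromatin, and 11 (12.4%) lie at the pericentromeric ends of the arms, compared with 0.592% and 2.04% of the other lncRNA genes. The remaining 74 members lie on the arms, 17 of them on the X. The summed siEgg ratio was 0.49 (-0.10 to 1.09) on chromosome 4, 0.52 (0.23 to 0.81) in the pericentromeric class and 0.61 (0.49 to 0.74) on the arms, so the siEgg signal was not confined to the heterochromatic classes. All 12 members enriched in siEgg are on the arms as classed here, where 74 of the 89 members lie. On chromosome 4, 3 of the 4 passed the call for a fall, as did 36 of all 89 members. The share was 43.0% of other genes at the same siEGFP thresholds and 3.12% of all genes. Since the siEGFP ChIP chose the members, nothing is read from the falls on chromosome 4. The 12 include lncRNA:CR44712, which lies 458 bases from the annotated span of lncRNA:flam. Its place on the arms rests on the position cut chosen for the pericentromeric class of the X, and other cuts were not tested.

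The chromosome 4 members were lncRNA:CR45201, lncRNA:CR44440 and lncRNA:CR44441, described above, and lncRNA:CR43958 (4:557025-557854), which overlaps Tdg and had 8 ChIP and 7 input reads in siEgg against 21 and 5 in siEGFP. In the pericentromeric class lncRNA:CR45472 (2R:5663909-5664615), 687 bases from Not3, had 9 and 9 reads in siEgg against 73 and 5 in siEGFP and a change of -3.52 (-5.32 to -1.72). lncRNA:CR41257, 143 bases from the MAP kinase gene rl, had 7 and 7 in siEgg against 40 and 2 in siEGFP, and lncRNA:CR43765, 203 bases from Nubpl, had 2 and 4 against 30 and 5. The siEgg ratios of these 3 pericentromeric genes were 0.40, 0.40 and -0.49, each with an interval across 0.

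Some other pericentromeric members had more siEgg ChIP than siEgg input reads, though the siEgg input was the deeper column, and others had fewer. lncRNA:CR43241 had 13 ChIP and 9 input reads in siEgg against 40 and 8 in siEGFP, lncRNA:CR44127 had 10 and 6 against 15 and 6, and lncRNA:CR45181, 476 bases from the cohesin gene vtd, had 8 and 4 against 47 and 11. lncRNA:CR43242, 619 bases from Spf45, had 8 and 11 in siEgg against 29 and 8 in siEGFP, and lncRNA:CR43256, which overlaps gus, had 7 and 10 against 18 and 11. None of these siEgg ratios had an interval above 0. The class also holds lncRNA:CR42646, lncRNA:CR44809 and lncRNA:CR45736, which are described in other paragraphs. Of the 11 pericentromeric members only lncRNA:CR42646 had a siEgg interval above 0, at 0.80 (0.27 to 1.34) from 71 ChIP and 55 input reads.

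The members lay closer to protein-coding genes than other lncRNA genes did. The median distance from a member to the nearest protein-coding gene that does not overlap it was 525 bases, against 2585 bases for the other lncRNA genes. Within 200 bases of one were 29 members (32.6%) and 10.8% of the others, and within 1 kb 57 members (64.0%) and 32.1% of the others. In addition 36 members (40.4%) overlap a protein-coding gene, compared with 24.3% of the others, and the median span was 545 bases in the members and 657 in the others. These distances are between gene spans, since the annotation used gave no strand, and reads of overlapping genes cannot be told apart by strand in ChIP.

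Within the members, the siEgg signal was higher close to a protein-coding gene that does not overlap the member. The summed siEgg ratio was 1.00 (0.75 to 1.25) in the 29 members within 200 bases, with 330 ChIP and 223 input reads, 0.61 (0.45 to 0.78) in the 28 beyond 200 bases but within 1 kb, and 0.35 (0.17 to 0.53) in the 32 farther away. The intervals of the nearest and the farthest class do not overlap, and the classes held 8, 2 and 2 of the 12 genes enriched in siEgg. On the arms alone the ratios were 1.10 (0.80 to 1.40), 0.65 (0.46 to 0.83) and 0.37 (0.18 to 0.56). The siEGFP ratios, a description, were 2.78, 2.12 and 2.0 in the same order. For the other lncRNA genes the siEgg ratios were 0.03, 0.02 and -0.06 in the same classes. These classes leave out overlap, so the farthest also holds members that lie on a protein-coding gene, such as lncRNA:CR44888 and lncRNA:CR45324. The 36 members that overlap a protein-coding gene had a summed siEgg ratio of 0.49 (0.24 to 0.75). It was 0.62 (0.47 to 0.77) in the 49 that overlap no gene, so overlap did not go with a higher signal.

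**Figure D4:**
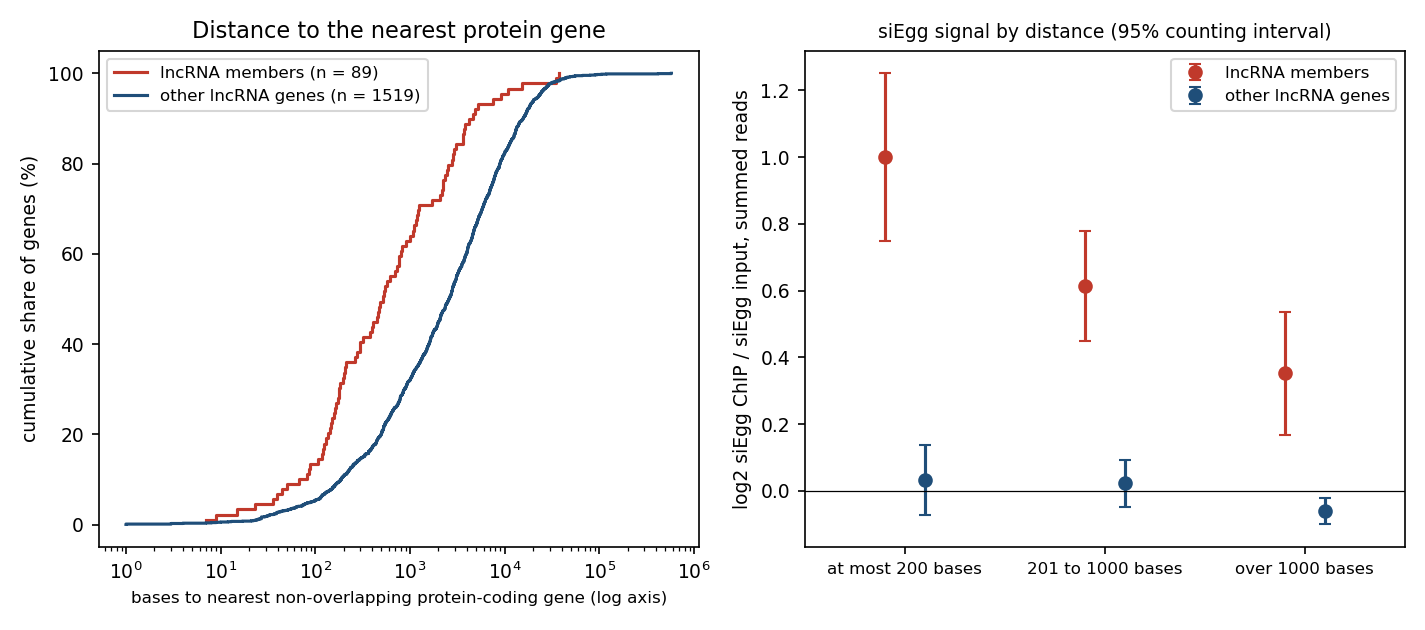
Left, the cumulative share (%) of 89 lncRNA members and 1519 other lncRNA genes against the distance in bases, on a log axis, to the nearest protein-coding gene that does not overlap them, with medians of 525 and 2585 bases. Right, the log2 ratio of summed siEgg ChIP over siEgg input reads in 3 classes of that distance, with 95% counting intervals: 1.00, 0.61 and 0.35 in the members and 0.03, 0.02 and -0.06 in the other lncRNA genes.

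The protein-coding neighbours were measured in the same way. Of the 84 nearest neighbours that passed the read filter, 0 were enriched in siEgg, where 1.32% of all genes tested were, and their median log2 ratio was 0.02. In siEGFP 8 (9.52%) were enriched, where 5.66% of all genes tested were, with a median of 0.03. The neighbours of the other lncRNA genes, 925 of which passed, had medians of -0.06 in siEgg and -0.37 in siEGFP, with 18 enriched in siEgg and 35 (3.78%) in siEGFP. On the arms alone the shares were 3 of 69 neighbours of members and 27 of 890 neighbours of the others. The genes that overlap members, 39 of which passed, had medians of 0.00 in siEgg and -0.09 in siEGFP, and 1 was enriched in siEGFP. Gene values are taken over transcript rows, whose recovered length equalled the gene span in 5091 of the 34762 rows above 0. Signal in parts of a neighbour outside its rows is missing from its value. Signal at one end of a long row would be diluted.

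A few members lie near each other, so their values may not be independent. lncRNA:CR30055 and lncRNA:CR45279 are 1800 bases apart on 2R, and lncRNA:CR30055 had 21 ChIP and 25 input reads in siEgg, a ratio of 0.18 (-0.73 to 1.08), against 72 and 22 reads in siEGFP. lncRNA:CR45474 and lncRNA:CR45475 are 4518 bases apart on X, and lncRNA:CR45559 and lncRNA:CR43252 are 9980 bases apart on 3R. The other members are at least 28649 bases from the next one.

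Most lncRNA genes with a name of their own were not members. Of 19 such genes with rows in the table, only Hsromega and the alphagamma-element met the rule. The 13 other named genes that passed the read filter had a median of 0.08 in siEgg and -0.55 in siEGFP, and 1, sphinx on chromosome 4, was enriched in siEgg (1.58, interval 0.53 to 3.57) and 0 in siEGFP. Relative to siEGFP, yar fell by 1.99 (interval -3.25 to -0.73) and let7C, which holds the let-7 complex of miRNAs, rose by 1.79 (0.45 to 3.13). These were the only fall and the only rise called among the 13. Of all 12595 genes tested, 166 were enriched in siEgg, 433 fell and 676 rose, so nothing is read from single calls among 13 genes. Among the lncRNAs of the bithorax complex, the segment identity genes, iab8 had 16.5 RPKM in the siEgg ChIP and 11.7 in the siEgg input, against 15.7 and 12 RPKM in siEGFP, and bxd had 15.6 and 14.7 in siEgg against 7.5 and 12.9 in siEGFP. Neither showed ChIP above input beyond its counting interval in either knockdown.

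The roX RNAs, which guide the dosage compensation complex to the X chromosome of males, were set apart by the rule and are given once for comparison. roX2 had 34 ChIP and 16 input reads in siEgg, against 126 and 10 in siEGFP, and roX1 had 283 and 235 in siEgg, against 231 and 225 in siEGFP. The siEgg ChIP of roX2 was thus below its siEGFP ChIP, and that of roX1 was not.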

How the data were processed

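Egg ChIP and input DNA of OSCs were analysed from the authors' deposited table, whose values are RPKM, a unit read from the values themselves. Reads were mapped with Bowtie2 2.2.4 to dm6, per the submitters' processing notes. Other steps are not given in the sources used here. The table holds 35327 transcript rows, of which 34925 were matched to genes by RefSeq accession and 167 by symbol or synonym, and rows were summed per gene. Whole reads were recovered from the RPKM with the 5S rRNA rows of 135 bases as anchor for row length. All 34762 rows above 0 came out whole within 0.001 reads. Depths, reads and intervals rest on that anchor, and 34.7% of the siEgg ChIP, 33.6% of the siEgg input, 36.8% of the siEGFP ChIP and 35.1% of the siEGFP input reads lay in the rows. The recovery and the intervals were tested on simulated data. Log2 ratios used a pseudocount of 0.6 RPKM, which understates the ratios of low genes. The change is the siEgg ratio minus the siEGFP ratio, with an interval from a normal approximation after 0.5 was added to each count, and was called at -1 or less, or 1 or more, with the interval clear of 0. With 1 column per group no test across replicates and no p-value was possible. The planned analyses of promoter motifs, sense and antisense overlap and distance to start sites were not run, since no sequences or strands were used here, and distances between gene spans took their place. Pericentromeric genes were those past 22 Mb of 2L, 23 Mb of 3L or 22 Mb of X, or before 6 Mb of 2R or 4 Mb of 3R. The members and the gene lists were chosen with earlier results of these data known. Members named with values were the 10 with most siEGFP ChIP reads, the 10 of highest siEGFP ChIP RPKM, all enriched in siEgg, the 5 largest and 5 smallest changes among those with at least 10 siEGFP input reads, those on chromosome 4, in the pericentromeric class or beside flamenco, those with a name, and those at the thresholds, and some others were named after their values were seen (members at 0 reads, near another member or with an input that differed). Python 3.11.15, numpy 2.4.6, pandas 2.3.3, scipy 1.17.1 and matplotlib 3.10.9 were used.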

Additional observations from a re-analysis of the deposited data

Results flagged for a closer look

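lncRNA:CR45474 (X:620282-620729) was the 1 member whose siEgg interval lay below 0, on the other side of 0 than its siEGFP interval. It had 0 ChIP and 7 input reads in siEgg, against 16 and 5 in siEGFP. The log2 ratio was -3.63 in siEgg (upper end of the interval -0.09), which depends on the pseudocount, and 1.84 (0.44 to 3.76) in siEGFP. Against a floor of 3 reads the siEgg ChIP was at least 1.73-fold lower than the siEgg input. The difference between the knockdowns was not tested beyond counting error. Looked at were the 88 members with siEgg reads, the 17 named lncRNA genes that are no members, and roX1 and roX2.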

How the results depend on the processing

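No paired analysis was possible because the table has 1 column per group with no replicate number, and no replicate could be left out for the same reason. Single members were followed through the other settings only for a list of named members, not for all 89. Among those no called result reversed, and the changes that turned sign without a call are given with the results. Whether the changes of the remaining members turned sign was not looked at. Among members past the read filter, 10 of 45 were enriched in siEgg (1.32% of all genes), as were 56 of 441 other genes at the same siEGFP thresholds (12.7%). The count was 2 of 19 with at least 10 reads in both siEgg columns (0.72% of all genes). It was 6 of 26 for members that overlap no other gene and 2 of 23 with at least 10 siEGFP input reads, both beside 1.32% of all genes. Each of these came from fewer members. The count of falls was 22 of 45 (3.44% of all genes), and 36 of 89 without the filter (3.12% of all genes). Of the other genes at the same siEGFP thresholds, 206 of 441 (46.7%) and 239 of 556 (43.0%) fell, in the same order. Since the siEGFP ChIP chose the members and helped them through the filter, nothing is read from these counts about the members alone. The count was 14 of 45 with quantile scaling (2.95%). It was 37 of 45 with both inputs pooled and likewise 37 with the ChIPs set against each other without inputs (4.87% in either). It was 14 of 26 without overlapping members and 10 of 23 with at least 10 siEGFP input reads, both beside 3.44% of all genes. The summed siEgg ratio of 0.60 was 0.76 for members of at least 30 RPKM and 0.82 for those of at least 1.5 on the log2 scale in siEGFP. The summed change of -1.62 was -1.84 after centring on all genes tested, -1.02 with quantile scaling, -1.83 with the highest row of a gene alone, -1.26 with at least 10 siEGFP input reads and -1.88 without Hsromega and the alphagamma-element, a setting added after the values were seen. The cause of these shifts was not tested where the number of genes or reads stayed the same. For the named members, 229 of 240 siEgg verdicts and 227 of 280 verdicts on the change were the same as in the main setting, 2 and 10 were lost and 9 and 43 were gained. Depth limits the calls at single members: 57 had fewer than 10 siEgg ChIP reads, so a missing siEgg call says little about them.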
